A study of Homo sapiens with 4 samples.

Results

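HCT116 is a human colorectal carcinoma cell line of epithelial type. Clone #4-7 is 1 stable HCT116 clone that carries a short hairpin RNA (shRNA) against N-BLR, a long non-coding RNA, and it was compared with 1 HCT116 clone that carries the empty vector. The 2 arrays labelled N-BLR shRNA #4-7, replicates 1 and 2, are described here, out of 4 arrays in the series. The other 2 arrays compare the second shRNA clone, #3-1, with the same control. Each array is a 2-colour Agilent gene expression array with probes of 60 bases. By the sample labels, RNA of the shRNA clone carried Cy5 and RNA of the empty vector clone carried Cy3 on every array, without a dye exchange. The labels speak of lentivirus, while the study's methods describe a retroviral shRNA plasmid delivered by transfection and a selected clone, so how the clone was made is given differently in the 2 sources. A clone can differ from its parent line in ways that have nothing to do with the hairpin, and with 1 clone on each side such differences cannot be told apart from those of the shRNA. The labels call the 2 arrays biological replicates, while the methods speak only of duplicate arrays. Over the probes printed 10 times on each array, the same spot differed between the 2 arrays by a median SD of 0.0292 in log2 ratio, while copies of a probe within an array differed by 0.0581 and 0.0448. The p-values below therefore measure a spread between arrays that is no larger than the spread within one.

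All values are log2 ratios of clone #4-7 over empty vector, Cy5 over Cy3, and all directions are those of the labels. The labels give E-cadherin (CDH1), the adhesion molecule of epithelial cells, as lower and vimentin (VIM), an intermediate filament of mesenchymal cells, as higher in clone #4-7. The study describes both in the opposite direction for its 2 clones, from the arrays and also by qRT-PCR and immunofluorescence. RNA shared by all 4 arrays should read alike in its channel on the arrays of both clones. HBE1 read 7.84 and 7.53 in Cy3 on the clone #4-7 arrays. Its mean over both channels and 4 arrays was 11.32, and its clone #3-1 ratio was -1.45. Together these put Cy3 far higher on the clone #3-1 arrays, with Cy5 nearly unchanged. VIM and CDH1 likewise differed between the clones' arrays in Cy3 rather than Cy5. The channel that holds the control was not tested here. If the dyes ran the other way, every sign below would be turned, and values given for clone and control would be exchanged. CDH1 (probe at chr16:67426715-67426774, build hg17) gave -1.37 and -1.32 on the 2 arrays, with a fitted value of -1.34 (SE 0.03, n = 2 arrays, limma adjusted p = 1.5e-05). VIM (chr10:17318353-17319262, hg17) gave 2.39 and 2.38, with a fitted value of 2.39 (SE 0.03, limma adjusted p = 4.3e-06). No probe on the array is named for N-BLR, so the level of the targeted RNA was not analysed here. Of the 2 genes between which the locus lies, ALAS1, the first enzyme of heme synthesis, was higher (0.53 and 0.48, fitted 0.50, limma adjusted p = 0.00025), a call that was lost without array 2 and with plain background subtraction. POC1A, a centriole protein, gave 0.20 and 0.18 and did not pass the threshold with its brightest probe, while its other probe was called at 0.45.

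On the 2 arrays, 71.5% and 72.6% of probe spots were well above background in Cy5, and 70.9% and 68.5% in Cy3. After averaging, 41000 probes were fitted in limma over all 4 arrays, and each of 17020 genes with a current symbol was read from its brightest probe. Of these, 13248 were well above background in a channel on both arrays of clone #4-7. A gene is called when its unadjusted p is under 0.001, the threshold the methods name, and the largest adjusted p among called genes was 0.0032. In clone #4-7, 3470 genes were called higher (20.4% of those tested) and 2745 lower (16.1%). With the added condition of a 2-fold ratio, 119 were higher (0.699%) and 240 were lower (1.41%). The median log2 ratio over all genes was 0.02. Because the spread between the arrays is so small, many calls are of small ratios, and the size of a ratio says more than its call. Without array 1 of clone #4-7 the fit called 1971 genes higher and 1605 lower, and without array 2 it called 1446 and 1267, and the counts of most gene lists below fell with them. At 2-fold the counts stayed between 121 and 127 higher and 223 and 262 lower.

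**Figure D1:**
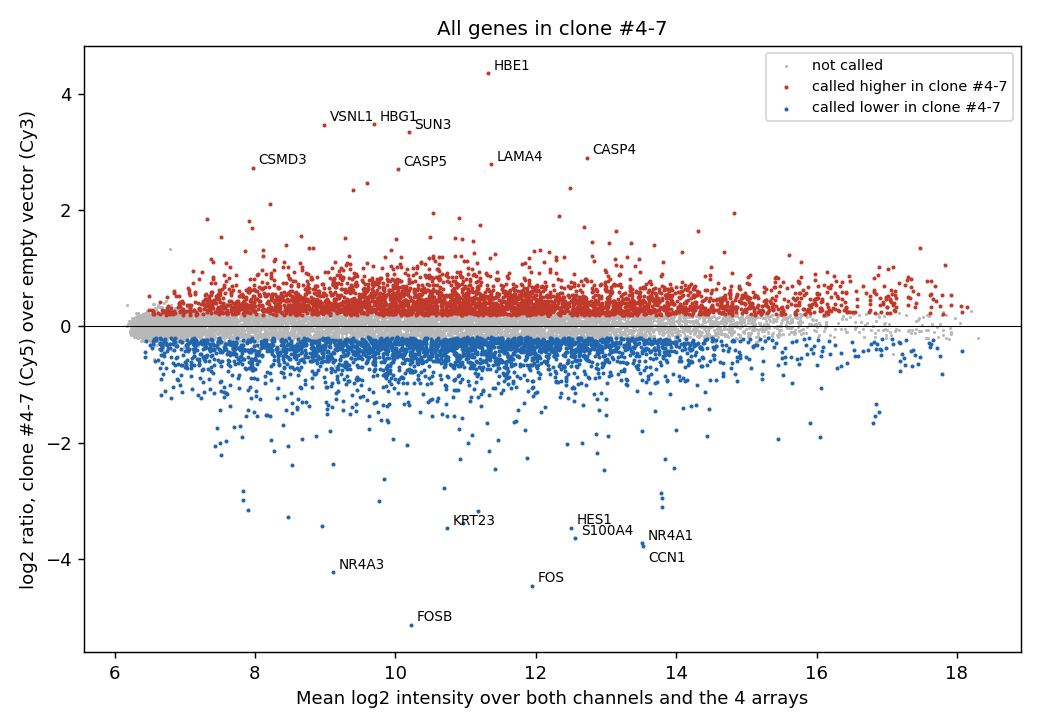
Each point is a gene, with the mean log2 intensity over both channels and the 4 arrays on the x axis and the log2 ratio of clone #4-7 over empty vector on the y axis; red and blue points are called higher and lower at p under 0.001, and grey points are not called. The lowest ratios belong to FOSB and FOS, at -5.12 and -4.46, and the highest to HBE1, at 4.34.

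The genes with the lowest ratios in clone #4-7 were mostly immediate early genes. These are genes that resting cells transcribe within minutes of a growth factor, fresh serum or stress, without new protein synthesis. They encode transcription factors of the AP-1 (FOS and JUN), EGR and NR4A families, together with phosphatases and RNA-binding proteins that switch the response off again. The serum response factor acts on them through CArG boxes, and CREB through cAMP response elements. Of the 31 immediate early genes on the list, all of them measured, 29 were called lower, 21 of these by at least 2-fold, 1 was called higher and 1 was not called. The share called lower was 93.5%, beside the 16.1% of all genes given above, and the median log2 ratio was -1.53, at -1.52 and -1.54 on the 2 arrays.

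FOSB had the lowest ratio of any gene that was bright in Cy3, with -5.12 and -5.13 on the 2 arrays. Its normalized log2 intensity was 9.47 and 9.51 in Cy5, labelled clone, and 14.59 and 14.64 in Cy3, labelled control. The fitted ratio of -5.12 (SE 0.04, limma adjusted p = 3.3e-06) puts Cy3 34.9-fold above Cy5. Which of these channels holds the control was not tested. FOS followed with -4.47 and -4.45, Cy3 lying 22.01-fold above Cy5. For both genes the 2 Cy5 values lay far below the 2 Cy3 values. JUN, the partner of FOS in AP-1, gave -3.09 and -3.11. The orphan nuclear receptors NR4A3, NR4A1 and NR4A2 had fitted ratios of -4.23, -3.73 and -2.99. NR4A1 has a second probe, which was also called lower but only at -0.48. The zinc finger factors EGR2, EGR3 and EGR1 had ratios of -3.43, -3.15 and -2.95. DUSP1, a phosphatase that inactivates MAP kinases, gave -3.40 and -3.34, and ATF3, a stress-induced factor, had a fitted ratio of -2.87. CCN1, a secreted matricellular protein, gave -3.72 and -3.83, with 3 probes between -4.62 and -3.38. All of these were lower on both arrays, with limma adjusted p-values between 3.3e-06 and 5.3e-06 for FOSB, FOS, NR4A3, CCN1, NR4A1, EGR2, DUSP1, EGR3, JUN, NR4A2 and EGR1. FOSL1, an AP-1 member with slower kinetics, was the 1 member called higher, at 0.38, and IER5 was the 1 not called, at -0.11.

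**Figure D2:**
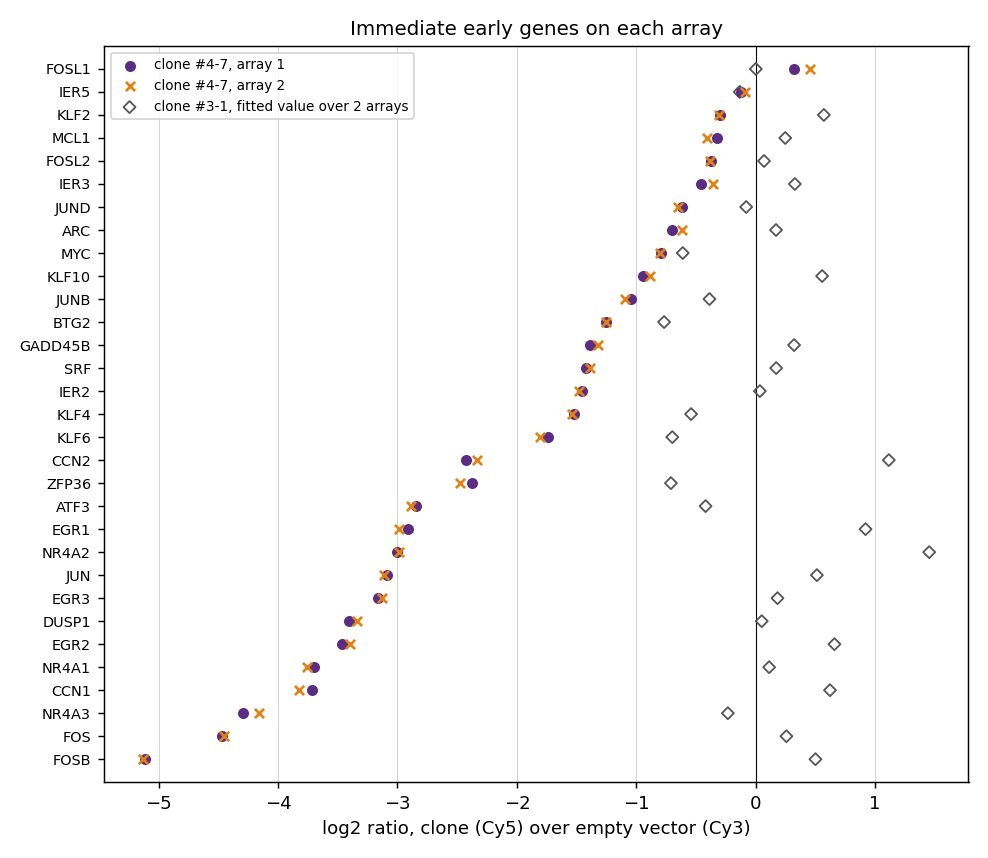
Log2 ratios of the 31 immediate early genes, 1 row a gene, with a filled circle for array 1 and a cross for array 2 of clone #4-7 and an open diamond for the fitted value of clone #3-1. The 2 arrays of clone #4-7 lie close together and left of 0 for all but FOSL1, while clone #3-1 lies near or right of 0 for most of the genes that are lowest in clone #4-7.

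The promoters of 5 of these genes are shown because they carry the elements for which the group is known. Each line is the 150 bases before the gene's start from RefSeq (GRCh38.p14), read 5′ to 3′ on the gene's strand, with matches to TGACGT (the core of a cAMP response element) on either strand and to the CArG box in capitals. EGR1 lies at chr5:138465329-138465478 (plus strand), FOS at chr14:75278678-75278827 (plus), FOSB at chr19:45467846-45467995 (plus), NR4A3 at chr9:99821735-99821884 (plus) and DUSP1 at chr5:172771196-172771345 (minus).
EGR1: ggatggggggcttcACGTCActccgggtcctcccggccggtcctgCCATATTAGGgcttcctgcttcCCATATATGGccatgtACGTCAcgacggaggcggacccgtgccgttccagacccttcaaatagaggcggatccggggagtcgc
FOS: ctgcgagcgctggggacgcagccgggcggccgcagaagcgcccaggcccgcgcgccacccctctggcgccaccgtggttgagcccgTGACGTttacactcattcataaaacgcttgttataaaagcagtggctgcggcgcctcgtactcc
FOSB: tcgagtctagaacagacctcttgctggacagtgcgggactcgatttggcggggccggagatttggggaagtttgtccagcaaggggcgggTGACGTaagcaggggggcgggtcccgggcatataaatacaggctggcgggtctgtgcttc
NR4A3: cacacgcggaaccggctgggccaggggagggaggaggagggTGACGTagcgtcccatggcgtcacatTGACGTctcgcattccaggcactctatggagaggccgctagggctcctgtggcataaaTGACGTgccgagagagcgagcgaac
DUSP1: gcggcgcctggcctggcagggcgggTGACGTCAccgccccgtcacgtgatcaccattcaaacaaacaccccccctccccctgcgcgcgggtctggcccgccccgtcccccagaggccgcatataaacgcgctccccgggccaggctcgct
EGR1 holds 2 CArG boxes, which begin 105 and 83 bases before the start, and 2 matches to TGACGT around them. FOS and FOSB each hold 1 match to TGACGT, at 64 and 60 bases before the start. In DUSP1 the 2 matches overlap and form a palindrome. Of the 22 list members with a promoter in the table, 7 held TGACGT in the 250 bases before the start, or 31.8%, beside 7.42% of 27305 promoters. A CArG box was found in 2 of the 22, or 9.09%, beside 1.14% of all. These are matches of letters, and nothing was measured at these sites.

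Genes that feed back on growth factor signalling were divided. Of 18 ERK feedback genes, 7 were called lower (38.9%, beside 16.1% of all genes) and 4 higher (22.2%, beside 20.4%), with a median of -0.01. DUSP2, DUSP5 and DUSP8, phosphatases of MAP kinases, were lower at -2.26, -1.17 and -0.97. DUSP8 has 3 probes, of which 2 were called. ETV1, an ETS factor, was lower at -1.26, and its relative ETV5 was higher at 0.72. Of 23 YAP and TEAD targets, 9 were lower (39.1%) and 6 higher (26.1%). CCN2 (-2.38) and CCN1 led the lower ones and also stand among the immediate early genes, while NT5E, the ectonucleotidase CD73, was higher at 1.19.

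Several feedback genes of other signalling pathways were lower. HES1, a repressor that Notch induces, gave -3.45 and -3.47 on the 2 arrays (fitted -3.46, SE 0.04, limma adjusted p = 3.9e-06), with 3 probes between -3.46 and -1.80. JAG1, a Notch ligand, was lower at -1.60. The list of 25 Notch genes as a whole held 7 called lower (28%, beside 16.1% of all genes) and 4 called higher (16%, beside 20.4%). Of 31 TGF-beta and BMP response genes, 13 were called lower (41.9%) and 6 higher (19.4%), with a median of -0.13. BAMBI, a decoy receptor, gave -2.48 and -2.42. The inhibitors of differentiation ID3 and ID1 were lower at -2.0 and -1.65, and SMAD7, the inhibitory SMAD, at -1.53. FST and INHBB, which encode follistatin and an activin subunit, were higher at 1.15 and 1.12. Wnt targets were divided, with 8 of 25 lower (32%) and 4 higher (16%). SOX4 (-1.45) and ETS2 (-1.15) were lower, and SP5 (1.20) and RNF43 (1.19), 2 direct targets of beta-catenin, were higher. SP5 has 3 probes, of which 2 were called and the other gave 0.10.

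Epithelial genes were lower beside CDH1. Epithelial cells hold together through adherens junctions built on E-cadherin, through tight junctions and through desmosomes. Of 32 genes of epithelial adhesion and polarity, 22 were called lower (68.8%, beside 16.1% of all genes), 1 was called higher and 9 were not called, and the median was -0.38. Without array 2 the count called lower was 13, and without array 1 it was 17. The list was drawn up with the study's interest in E-cadherin known. MAL2, a membrane protein of apical transport, gave -2.28 on both arrays. TMC4 gave -2.12 and -2.15. S100A14 and RAB25, an epithelial calcium-binding protein and a small GTPase of apical recycling, had fitted ratios of -1.95 and -1.48. In each of these 4 genes both Cy5 values lay below both Cy3 values. Of 24 tight junction genes, 10 were lower (41.7%), led by the scaffold MAGI1 (-1.51) and the claudins CLDN7 (-1.07) and CLDN4 (-0.73). Another 4 were higher (16.7%, beside 20.4% of all genes), led by the polarity protein PARD3 (0.73), of which only 1 of 2 probes was called. Among 16 genes of desmosomes and catenins, PERP (-1.01) and plakoglobin, JUP (-0.93), were lower. DSC3, desmocollin 3, was at least 2.57-fold higher, a bound because the control was not well above background on either array. A second probe of DSC3 gave 0.19 and was not called. Of 17 keratins, 4 were lower (23.5%) and 3 higher (17.6%). KRT23, a type I keratin, gave -3.50 and -3.44. KRT8 was lower at -0.90 and KRT18 at -0.36, while KRT10 was higher at 0.39, and the call of KRT18 was lost without array 2. KRT18 has 4 probes, of which 3 were called.

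Mesenchymal genes were divided. Of 27 mesenchymal markers, 5 were called higher and 5 lower (18.5% each, beside 20.4% and 16.1% of all genes), with a median of 0.03. VIM (2.39) and AXL, a receptor tyrosine kinase (0.77), were higher. S100A4, a calcium-binding protein tied to motility, gave -3.63 and -3.65, and SPARC, a matricellular protein, gave -3.38 and -3.18. S100A4 in Cy3, labelled control, was 12.5-fold above Cy5, labelled clone, with log2 intensities of 15.16 and 15.21 against 11.52 and 11.56. Of 15 transcription factors of the epithelial-mesenchymal transition, 2 were higher (13.3%) and 3 lower (20%). ZEB1 gave -0.16 and 0.02 and was not called (limma adjusted p = 0.31), and ZEB2 was not well above background in either channel. FOXC1 (-1.90, with its second probe at 0.20 and not called) and SNAI1 (-0.95) were lower.

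Matrix and surface genes gave single large changes. Of 30 laminin and collagen genes, 14 were lower (46.7%, beside 16.1% of all genes) and 4 higher (13.3%, beside 20.4%), all 4 of these by at least 2-fold. LAMA4, a laminin chain of blood vessels and mesenchyme, gave 2.80 and 2.77, with Cy5 6.89-fold above Cy3. COL13A1 was higher at 1.49 and COL9A3 at 1.16, while LAMA3, the epithelial laminin chain, was lower at -1.29. ITGA7 was lower at -1.12 among 16 integrins, and ITGB5 (0.55) and ITGB1 (0.42) were higher, the last with 2 of its 4 probes called and with no call when either array was left out. Of 32 metalloproteinases and inhibitors, 22 were not called. ADAM19 was higher at 1.44, and TIMP3, an inhibitor, was at least 2.25-fold lower with 1 of its 2 probes, a call that other background corrections, the processed signals and the deposited ratios did not make.

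The highest ratios belonged to a pair of globin genes. Hemoglobin epsilon and gamma are the embryonic and fetal chains of the beta-globin cluster, which adult cells outside the red cell lineage keep silent. HBE1 (chr11:5247438-5247619, hg17) gave 4.19 and 4.50. Its log2 intensities were 12.03 and 12.03 in Cy5, labelled clone, against 7.84 and 7.53 in Cy3, labelled control. Which channel holds the control was not tested, so the side on which the globins are high rests on the labels. The fitted value was 4.34 (SE 0.08, limma adjusted p = 1e-05), or 20.3-fold. HBG1 (chr11:5226110-5226169, hg17) gave 3.27 and 3.67, or 11.1-fold. HBG1 is nearly identical to HBG2 and similar to HBE1, so a probe of one may also bind RNA of another. Of 24 globin and erythroid genes on the array, 5 were called higher (20.8%, beside 20.4% of all genes), 2 were lower and 17 were not called. HBA1 was higher at 0.38, while GATA1 and KLF1, the master regulators of red cells, and the erythroid membrane proteins GYPB and EPB42 were not well above background in either channel. Of 12 erythroid markers, 7 were dim in both channels, while HBA1, HBE1, HBG1, ALAS2 and SLC4A1 were well above background in at least 1. Summed over all 12, the intensity was 7454 and 7325 in Cy5, labelled clone, and 2022 and 1930 in Cy3, labelled control. HBE1 and HBG1 are included and make up most of the sum in Cy5. Of 22 genes of heme synthesis and iron, 6 were higher (27.3%) and 3 lower (13.6%, beside 16.1% of all genes). HMOX1, heme oxygenase, was higher at 1.45 and CPOX, a late enzyme of the pathway, was lower at -1.53.

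The other genes with the highest ratios were of varied function. VSNL1, a neuronal calcium sensor, gave 3.38 and 3.54, and SUN3, a nuclear envelope protein, gave 3.20 and 3.47. CSMD3 was at least 5.39-fold higher, since the control was not well above background. NAV3, a microtubule-associated guidance protein, CTPS2, a CTP synthase, SYTL3, a vesicle protein, DPYSL4 and CDK6, a kinase of the G1 phase, had fitted ratios of 2.47, 2.10, 1.94, 1.94 and 1.89. The chemokine CXCL1 gave 2.33 and 2.35 (limma adjusted p = 4.4e-06), and it was the largest change among 35 chemokine and cytokine genes, of which 28 were not called. IL18 (-1.20) and the receptor CXCR4 (-1.04) were lower.

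The caspases with the largest ratios were a pair of inflammatory ones. CASP4 and CASP5, neighbours on chromosome 11 that sense bacterial lipopolysaccharide and trigger pyroptosis, gave 2.90 and 2.89, and 2.67 and 2.72. Their fitted values were 2.90 (SE 0.03, limma adjusted p = 3.3e-06) and 2.70 (SE 0.03, limma adjusted p = 3.9e-06). These put Cy5, labelled clone, 7.44-fold and 6.48-fold above Cy3, labelled control. Which channel holds the control was not tested. The pair is similar in sequence, and a probe of one may bind RNA of the other. CASP9, the initiator of the mitochondrial pathway, gave -0.01 on both arrays and was not called. CASP10, an initiator of the death receptor pathway, was higher at 0.81, with 2 of its 3 probes called. CASP8 was lower at -0.31, a call lost when either array was left out, and CASP1, the third inflammatory caspase, was at -0.05 and not called. CASP8 has 3 probes, of which 2 were called. Of the inhibitors of apoptosis, BIRC3 was higher at 1.01 and BIRC5 (survivin) at 0.58, while XIAP (0.12) and BIRC2 (0.07) were not called. PARP1, a repair enzyme that caspases cleave, was lower at -0.74 on both arrays. Over the 26 inhibitors of apoptosis and caspases, 8 were higher (30.8%, beside 20.4% of all genes), 6 lower (23.1%, beside 16.1%) and 12 not called. In the BCL2 family, BNIP3 (1.63) and BAK1 (0.92) were higher and PMAIP1 (-0.94) was lower, with 6 of 24 higher (25%) and 7 lower (29.2%) in all. Of 31 p53 targets, 8 were higher (25.8%) and 10 lower (32.3%), and the lowest, PLK2 (-1.88) and BTG2 (-1.25), are also induced by serum.

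Genes of glycolysis and of the response to low oxygen were higher. Hypoxia-inducible factor drives glucose uptake, the glycolytic enzymes and a set of regulators when oxygen is short. Of 36 such genes, 26 were called higher (72.2%, beside 20.4% of all genes), 8 of them by at least 2-fold, 5 were lower and 5 were not called. The median was 0.60, at 0.63 and 0.59 on the 2 arrays. SLC2A1, the glucose transporter GLUT1, gave 1.73 and 1.68 (limma adjusted p = 1.1e-05), or 3.26-fold, and BNIP3, a mitophagy receptor, gave 1.63 and 1.64, or 3.1-fold. NDRG1, a stress-induced protein, and ALDOC, an aldolase, had fitted ratios of 1.23 and 1.22. Among the others, ENO2 (1.11), PFKFB4 (1.17), P4HA2 (1.20) and ANKRD37 (1.01) were called higher, all of them chosen for mention after their values were seen. ADM (-0.81) and CA12 (-0.73), which hypoxia can also induce, were called lower, and VEGFA, at 0.07, was not called.

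Promoters of 4 of the genes called higher are shown with matches to ACGTG, the core of the hypoxia response element, on either strand in capitals. Each line is again the 150 bases before the start from RefSeq (GRCh38.p14) on the gene's strand: CA9 at chr9:35673778-35673927 (plus), BNIP3 at chr10:131981924-131982073 (minus), ALDOC at chr17:28576896-28577045 (minus) and ANKRD37 at chr4:185396691-185396840 (plus).
CA9: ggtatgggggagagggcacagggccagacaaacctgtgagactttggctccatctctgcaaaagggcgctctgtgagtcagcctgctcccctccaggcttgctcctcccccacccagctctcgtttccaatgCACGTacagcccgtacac
BNIP3: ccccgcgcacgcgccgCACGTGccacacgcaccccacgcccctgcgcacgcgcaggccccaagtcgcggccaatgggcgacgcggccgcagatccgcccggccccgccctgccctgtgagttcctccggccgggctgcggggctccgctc
ALDOC: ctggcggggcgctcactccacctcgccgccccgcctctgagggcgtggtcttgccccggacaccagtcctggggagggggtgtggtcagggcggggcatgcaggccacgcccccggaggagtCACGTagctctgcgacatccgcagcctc
ANKRD37: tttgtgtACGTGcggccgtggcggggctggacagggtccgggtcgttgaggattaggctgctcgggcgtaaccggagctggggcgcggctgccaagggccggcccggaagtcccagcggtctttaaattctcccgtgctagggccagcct
The match of CA9 begins 18 bases before the start, and that of BNIP3 is a palindrome that counts on both strands. Of 33 members with a promoter in the table, 14 held ACGTG in the 250 bases before the start (42.4%), beside 18.7% of all promoters. CA9 was higher at 0.62.

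In each of 4 other metabolic lists, more members were called higher than lower, as was also so over all genes (20.4% and 16.1%). Of 25 genes of cholesterol synthesis and uptake, which SREBP controls, 16 were called higher (64.0%, beside 20.4% of all genes) and 2 lower, with a median of 0.28. Without array 2 the count called higher was 9. STARD4, a sterol carrier, was higher at 1.17, ACAT2, which makes acetoacetyl-CoA, at 0.90 and MSMO1, a sterol oxidase, at 0.80, while TM7SF2, a sterol reductase, was lower at -0.86. Of 19 fatty acid genes, 8 were higher (42.1%) and 1 lower (5.26%): LPIN1 (1.19), ME1 (0.71) and SCD, the stearoyl-CoA desaturase (0.68), led. Each of LPIN1 and ME1 has 2 probes, of which 1 was called, and SCD has 3, of which 2 were called. Of 33 genes of oxidative phosphorylation, 12 were higher (36.4%) and 1 lower (3.03%), with a median of 0.08, all under 2-fold. Without array 2, 2 were called higher. Of 27 genes of purine and pyrimidine synthesis, 12 were higher (44.4%) and 5 lower (18.5%), with the CTP synthases CTPS2 (2.10) and CTPS1 (1.14) at one end. PRPS1, which makes the ribose precursor of both, stood at the other, with -2.46 and -2.49 and both of its probes called.

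Genes of cell division were higher by small ratios. Of 40 mitosis genes, 30 were called higher (75.0%, beside 20.4% of all genes) and 2 lower, none by 2-fold, with a median of 0.42. CCNA2, cyclin A, was higher at 0.92, CCNB1, cyclin B, at 0.69, PTTG1, securin, at 0.67 and the factor MYBL2 at 0.65. MKI67, the proliferation marker Ki-67, went the other way at -0.53. Of 45 genes of S phase and DNA replication, 30 were also higher (66.7%, beside the same 20.4%) and 2 lower, with a median of 0.29. Without array 2, 20 of the mitosis genes and 14 of the S phase genes were called higher. POLE2 (0.85), TYMS, thymidylate synthase (0.83), MCM10 (0.77) and GINS2 (0.77) led.

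Mitotic genes are known for a cell cycle homology region near their start, through which they are repressed in resting cells. It is shown here as TTTGAA, in capitals on either strand, for PLK1 at chr16:23678739-23678888 (plus), CCNB2 at chr15:59104996-59105145 (plus) and CDC20 at chr1:43358831-43358980 (plus), with the same window and source as above.
PLK1: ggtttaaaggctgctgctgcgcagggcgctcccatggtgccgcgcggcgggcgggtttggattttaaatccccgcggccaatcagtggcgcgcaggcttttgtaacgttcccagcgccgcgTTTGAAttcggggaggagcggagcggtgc
CCNB2: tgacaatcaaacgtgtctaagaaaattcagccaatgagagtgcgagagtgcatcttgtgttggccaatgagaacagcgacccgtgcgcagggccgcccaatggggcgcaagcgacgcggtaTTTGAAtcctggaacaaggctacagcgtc
CDC20: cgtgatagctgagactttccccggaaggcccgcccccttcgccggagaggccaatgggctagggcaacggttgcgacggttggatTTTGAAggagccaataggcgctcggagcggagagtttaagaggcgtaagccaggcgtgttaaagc
In PLK1 and CCNB2 the match begins 29 bases before the start. Of 33 mitosis genes with a promoter in the table, 17 held it in the 250 bases before the start (51.5%), beside 13.6% of all promoters and 1 of 38 genes of S phase (2.63%). PLK1 was higher at 0.33, CCNB2 at 0.26 and CDC20 at 0.43.

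Stress and metal genes gave a mixed picture. Of 32 heat shock proteins and chaperones, 17 were higher (53.1%, beside 20.4% of all genes) and 2 lower, with a median of 0.25. HSPE1, the mitochondrial co-chaperonin, was higher at 1.02, CRYAB at 0.88, HSPA1A at 0.87 and DNAJA1 at 0.86. The probes of HSPA1A ranged from 0.87 to 2.63. Of 18 genes of metallothioneins and zinc transport, 10 were higher (55.6%), led by MT2A (1.02), MT1A (0.87) and MT1M (0.84), and the median was 0.57. The metallothionein copies are so alike that their probes may read shared RNA, and the median fell to 0.28 when all probes of a gene were averaged. SLC39A10, a zinc importer, was lower at -0.88. The 34 genes of ATF4 and the unfolded protein response were divided into 10 higher and 10 lower (29.4% each, beside 20.4% and 16.1% of all genes). ATF3 and PPP1R15A (-1.25), which were lower, are immediate early genes as well, and SDF2L1, a chaperone partner of the endoplasmic reticulum, was higher at 0.94. Of 19 aminoacyl-tRNA synthetases, 6 were higher (31.6%), led by WARS1 (0.74), and 3 lower (15.8%). Of 43 ribosomal proteins of the cytosol, 14 were lower (32.6%), led by RPL3 (-0.81), and 7 higher (16.3%), with a median of -0.06. The direction of this list turned with the scaling: without normalization between arrays its median was 0.10, with 14 called higher and 9 lower.

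Of 36 interferon-stimulated genes, 10 were lower (27.8%, beside 16.1% of all genes) and 5 higher (13.9%, beside 20.4%). BST2 (tetherin), IFI6, OASL and IFIT1 were lower at -1.21, -1.0, -0.98 and -0.90. Of 20 genes of HLA class I presentation, 13 were not called, and TAPBP, tapasin, was higher at 0.87 with 3 of its 4 probes called. Of 18 S100 proteins, 9 were lower (50%) and 2 higher (11.1%). Of 39 HOX genes, 11 were higher (28.2%) and 3 lower (7.69%), and HOXB6 (1.03), HOXB8 (1.01) and HOXC8 (0.89) led. A second probe of HOXC8 gave 0.30 and was not called. Of 36 genes of intestinal differentiation, 27 were not called: FCGBP (-1.77) and MUC4 (-1.19), both of mucus, were lower, while CA2, carbonic anhydrase, was higher at 0.70. Of 24 cancer testis antigens, PAGE4 was the 1 called, at least 1.21-fold lower, and it was not called when either array was left out.

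Markers of cell types were read in both channels. Of 9 markers of colon epithelium, 6 (EPCAM, KRT8, KRT18, KRT19, LGALS4 and CDX2) were well above background in clone and control, and CDH17, VIL1 and CDX1 were dim in both. Their summed intensity was 385100 and 369800 in the clone and 416100 and 387200 in the control. Of 7 fibroblast markers 5 were dim in both, of 5 endothelial markers 4, and of 10 blood cell markers 5, among them PTPRC, the marker of all white cells. The summed intensity of the fibroblast markers was 1204 and 1217 in the clone against 1960 and 1985 in the control, that of the endothelial markers 560.8 and 576.3 against 642 and 632.4, and that of the blood cell markers 2259 and 2200 against 1518 and 1540. Of the 22 markers of these 3 cell types, 3 were called higher and 3 lower. COL1A1, a collagen chain of fibroblasts, was lower at -1.13. Of the fibroblast markers it was the 1 called lower, and 1 was called higher. Its log2 intensities were 9.34 and 9.39 in Cy5 and 10.48 and 10.51 in Cy3, so the gap in the fibroblast sum rests largely on this gene. VWF, the von Willebrand factor of endothelium, was lower at -0.44 with 1 of 2 probes called, and CD68, a lysosomal protein of macrophages, was higher at 1.04.

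Clone #4-7 was then compared with clone #3-1, the other clone with an shRNA against N-BLR. The labels and methods do not say whether the clones carry the same hairpin sequence. Both were hybridized against the same control, so the control cancels in the difference of their ratios, and what the clones share against it is not a separate observation in each. By the test of the difference, 2478 genes were higher in clone #4-7 than in clone #3-1 (14.6% of those tested) and 2285 were lower (13.4%). The immediate early genes were lower in clone #4-7 in 28 of 31 cases and higher in none, with a median difference of -1.58. In clone #3-1 the same list had a median of 0.17 against the control, with 12 called higher and 7 lower. FOSB was at 0.50 in clone #3-1 and -5.12 in clone #4-7, a difference of -5.62 (limma adjusted p = 9.7e-06). HES1 was at 1.60 and -3.46, a difference of -5.06, and NR4A2 at 1.45 and -2.99, a difference of -4.45. FOS, CCN1, SPARC, EGR2, NR4A3, EGR1 and NR4A1 completed the 10 most negative differences, between -4.72 and -3.84.

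At the other end, HBE1 was at -1.45 in clone #3-1 and 4.34 in clone #4-7, a difference of 5.80 (limma adjusted p = 2.1e-05), and HBG1 at -0.69 and 3.47. LAMA4 was at -0.40 and 2.78, CASP4 at 0.17 and 2.90, and SUN3 at 0.73 and 3.33. GALNT5 (-1.23 and 1.53), a transferase that starts O-glycans, HYAL1 (-1.13 and 1.51), a hyaluronidase, and C1orf116 (-1.83 and 0.70) were lower than the control in clone #3-1 and higher in clone #4-7. HYAL1 has a second probe, which gave 0.24 in clone #4-7 and was not called. AGPAT4, an acyltransferase, differed by its value in clone #3-1: it was at 0.01 in clone #4-7 and was not called there, and at -2.78 in clone #3-1. These values are of its brightest probe, and 1 of its other 2 probes was called lower in clone #4-7, at -0.40.

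The gene lists separated the clones in several directions. Of 25 cholesterol genes, 23 were higher in clone #4-7 than in clone #3-1, with a median difference of 1.02: against the control, all 25 were called lower in clone #3-1, at a median of -0.68, and the median was 0.28 in clone #4-7. Of 36 genes of glycolysis and hypoxia, 24 were higher in clone #4-7 and 1 lower, with medians of 0.60 in clone #4-7 and -0.23 in clone #3-1. SLC2A1 was an exception, at 1.70 in clone #4-7 and 1.98 in clone #3-1. Of 33 genes of oxidative phosphorylation, 15 were higher in clone #4-7 and none lower, and of 19 fatty acid genes 13 were higher and none lower. Genes of S phase were lower in clone #4-7 in 32 of 45 cases and higher in 1, since their median was 0.78 in clone #3-1 and 0.29 in clone #4-7. Of the metallothionein and zinc genes, 12 of 18 were lower in clone #4-7, with medians of 1.13 and 0.57 in clones #3-1 and #4-7. The epithelial genes were higher in clone #4-7 in 23 of 32 cases, being lower than the control in both clones but further so in clone #3-1, with medians of -1.05 and -0.38. CDH1 was at -2.60 in clone #3-1 and -1.34 in clone #4-7 (difference 1.25, limma adjusted p = 6.2e-05), and VIM was at 4.45 and 2.39 (difference -2.06, limma adjusted p = 2.2e-05).

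**Figure D3:**
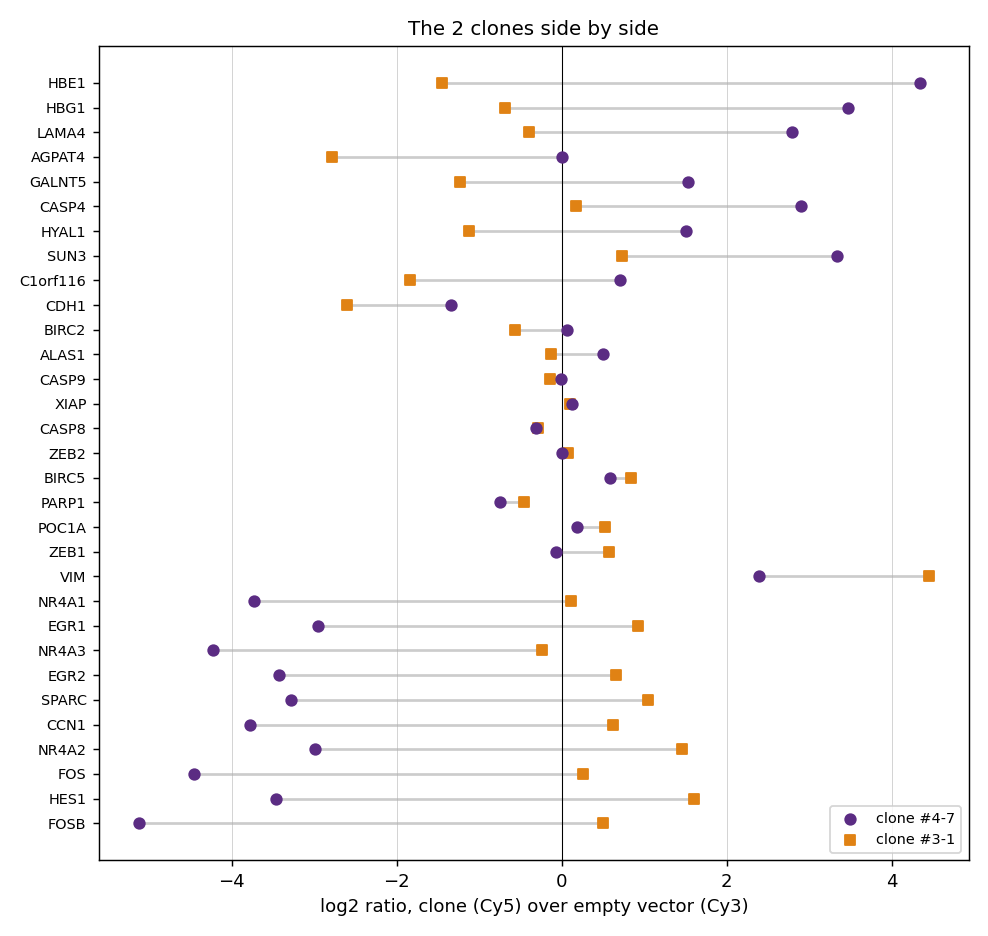
Fitted log2 ratios over empty vector in clone #4-7 (circles) and clone #3-1 (squares), 1 row a gene, joined by a line, for 19 genes among those with the largest differences between the clones and 12 genes of the study's questions. The clones lie on opposite sides of 0 for genes such as HBE1 and FOSB and on the same side for CDH1 and VIM.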

How the data were processed

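The authors deposited, for each of 4 arrays, the intensity of every spot and its local background in the Cy5 and Cy3 channels as read by Agilent Feature Extraction (version 8.5.1.1 in the submitters' processing notes, 9.5.3.1 in the file headers), without normalization. The deposited files also hold processed intensities, the log10 of Cy5 over Cy3 and other values, flags of 0 or 1 for outlier, saturated and well above background spots. A deposited table of log10 ratios lay within 0.005 of the scanner values. Array number limits the precision.

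With R 4.3.3 and limma 3.58.1, mean intensities were background corrected (normexp, offset 50), loess normalized on each array and quantile normalized across arrays, without control and outlier spots, and averaged by probe. A linear model with 1 coefficient per clone was run on 41000 probes and 4 arrays, and was tested on simulated data. The control is 1 sample, and a test of a ratio against 0 leaves out its own spread. All 4 arrays lie on 1 slide with 1 scan, so neither could be fitted, and an effect of position on it was not tested. The offset draws ratios of dim genes towards 0. A bound ("at least") sets the bright channel against the lowest signal well above background, with intensities scaled between arrays by mean intensity, and is open to dye bias since dyes were not swapped.

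Names came from RefSeq by accession (23434 probes) or a current symbol in the file (2317). The other 15249 probes were fitted but not counted. Probe coordinates are those of the files, build hg17. Named genes are those of the study's questions, the 15 largest called ratios in each direction that were bright on both arrays, the 10 largest called differences from clone #3-1 in each direction, and up to 4 called members of each of 40 lists, besides those marked otherwise and those used to show a list's exceptions. Some genes are not reported here. Members and lists were chosen with earlier results of these data known. Same-numbered arrays of the 2 clones did not deviate together (correlation over probes -0.01), so no replicate block entered the main model. Alternatives were other background corrections and normalizations, the processed signals, the table, probe filters, the prior variance, an adjusted p under 0.05 and leaving out arrays.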

Additional observations from a re-analysis of the deposited data

Results flagged for a closer look

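Among the genes named for the study's questions, for the largest ratios or for the largest differences, 30 had ratios that differed between clone #4-7 and clone #3-1 by the test of the difference (limma, unadjusted p under 0.001) and by at least 2-fold, and each is given as the log2 ratio in clone #4-7 minus that in clone #3-1. Lower in clone #4-7 were FOSB (-5.62), HES1 (-5.06), FOS (-4.72), NR4A2 (-4.45), CCN1 (-4.39), SPARC (-4.32), EGR2 (-4.09), NR4A3 (-3.99), EGR1 (-3.87), NR4A1 (-3.84), JUN (-3.61), KRT23 (-3.55), DUSP1 (-3.42), EGR3 (-3.33), SAMD5 (-3.26), S100A4 (-3.00) and VIM (-2.06). Of these 17, 11 are immediate early genes. The genes were named mainly for their large ratios or differences, so this count follows from that choice and is not a separate result. Higher in clone #4-7 were CDK6 (1.21), CDH1 (1.25), SYTL3 (2.11), CASP5 (2.41), C1orf116 (2.54), SUN3 (2.61), HYAL1 (2.63), CASP4 (2.73), GALNT5 (2.76), AGPAT4 (2.79), LAMA4 (3.18), HBG1 (4.16) and HBE1 (5.80). The limma adjusted p-values of the 30 differences lay between 9.7e-06 and 8.6e-05. All 30 directions are those of the dye labels. Groups of 2 arrays are too small for a test of a single array that stands apart.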

How the results depend on the processing

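The counts of genes with a 2-fold ratio stayed within 1.5 times under most alternatives, while counts at p under 0.001 alone often did not. Of 3470 genes called higher and 2745 lower in clone #4-7, normexp with an offset of 0 called 1892 and 1495, plain background subtraction 1559 and 1322, and an adjusted p under 0.05 called 5503 and 4348. Dropping single arrays left 1446 to 3095 higher and 1267 to 2484 lower, the fewest without replicate 2 of clone #4-7. Of 119 genes at least 2-fold higher and 240 lower, plain subtraction gave 195 higher, the processed signals 267 and 371, and the deposited ratios 215 higher. Of 2478 genes higher and 2285 lower in clone #4-7 than in clone #3-1, the offset of 0 gave 1175 and 1034, plain subtraction 915 and 832, the processed signals 1543 and 1395, and the deposited ratios 1631 higher. A prior variance that followed intensity gave 3982 and 3816, an adjusted p under 0.05 gave 4263 and 4060, and dropping single arrays 1079 to 1649 and 977 to 1439. The causes of these shifts were not tested. With the replicate block, 2857 genes were higher and 2294 lower, with 119 and 240 at 2-fold, and 1954 and 1722 in the difference.

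Over 179 named genes no called direction was reversed in any alternative, and 152 kept their side of the threshold in all of them, with 70 of 2863 combinations of gene and alternative losing a call and 6 gaining one. The median of the immediate early genes stayed between -1.60 and -1.53, with 25 to 30 of 31 called lower, and that of glycolysis and hypoxia between 0.55 and 0.71, with 24 to 26 of 36 called higher. Without replicate 2 of clone #4-7, the fewest members were called: 9 of 25 cholesterol genes, 14 of 45 S phase genes and 20 of 40 mitosis genes higher, and 13 of 32 epithelial genes lower. Without 1 array of a clone, its remaining array was assumed to vary like those of the other clone. Dim genes have ratios that the background correction sets.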
